A study of Mus musculus with 6 samples.

Results

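The genes of cholesterol synthesis, uptake, handling inside the cell and efflux were followed in neural stem cells of young and old mice. The set was given as 33 gene symbols by a rule that uses no measured value, but it was chosen with earlier results of these data known. Of the 33 genes, 30 had at least 1 probe set under their symbol in the platform annotation, out of 18193 genes named there. The other 3 (Acat2, Soat1 and Nr1h2) had none under their name and are not analysed here. The list does not hold every gene of the pathway. Where a gene had several probe sets, the brightest on average stood for it and the others served as a check. The study hybridised total RNA of neural stem cells, labelled with biotin, to 6 Affymetrix arrays. The cells came from C57BL/6JRj mice, 3 samples from mice of 6 weeks (young) and 3 from mice of 9 months (old). The labels name no transgene, treatment or culture step for either age, and do not tell separate animals from repeats of 1 animal or culture. The p-values therefore rest on the spread among these 6 samples alone, and part of that spread can be technical.

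Cholesterol is built from acetyl-CoA through mevalonate and the isoprenoids to squalene, which is closed into the first sterol, lanosterol, and trimmed to cholesterol. The synthesis enzymes are switched on together by the transcription factor SREBP2 (gene Srebf2), which its escort SCAP releases from the endoplasmic reticulum when sterols are scarce and which the INSIG proteins hold back when sterols are plentiful. When oxysterols build up, the liver X receptors (genes Nr1h2 and Nr1h3) turn on export through ABCA1 and ABCG1 and the ligase MYLIP, which sends lipoprotein receptors to degradation. The brain makes nearly all of its own cholesterol, since lipoproteins of the blood do not cross the blood-brain barrier.

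Enzymes of cholesterol synthesis were mostly lower in old cells on the deposited scaling, by small amounts, but not when arrays were scaled to their hybridisation controls. Of the 17 enzymes measured, 10 fell (58.8%), 1 rose (5.88%) and 6 did not pass the test. Of all named genes tested, 18.5% fell and 22.0% rose. The median old minus young difference of the 17 was -0.27 on the log2 scale. Lanosterol synthase, Lss, fell 2.37-fold and the mevalonate pyrophosphate decarboxylase Mvd 1.99-fold, and their order turned when all probe sets of a gene were averaged (-1.13 and -1.21 log2). The lipoprotein receptor gene Vldlr fell 2.14-fold and the sterol carrier gene Stard4 fell 1.26-fold, while the efflux pump gene Abca1 rose 3.3-fold. The 4 sterol sensing genes Srebf2, Scap, Insig1 and Insig2 did not pass the test at the probe sets that stand for them. A second probe set of Srebf2 did pass, with a difference of -0.18. In these bulk samples, fewer cells of a type and less RNA per cell cannot be told apart.

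Calls were made with limma at an adjusted p under 0.05, over all 19858 probe sets that lay above log2 4 on at least 3 arrays. Of the 30 genes with a probe set, 27 passed this filter, and all 27 lay above log2 4 on all 6 arrays, with values between 8.32 and 14.73. Among the 27, 12 fell and 2 rose, or 44.4% and 7.41%. Of all 10050 named genes tested, 18.5% fell and 22.0% rose, and 40.6% changed in either direction. The ages did not overlap for 19 of the 27 genes, or 70.4%, with 16 of them lower in old, beside 60.0% of all named genes. The median difference was -0.20 for the 27 genes and 0.01 for all named genes. The differences were no larger than usual for these data, since the median size, in either direction, was 0.23 for the 27 genes and 0.23 for all named genes.

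**Figure D1:**
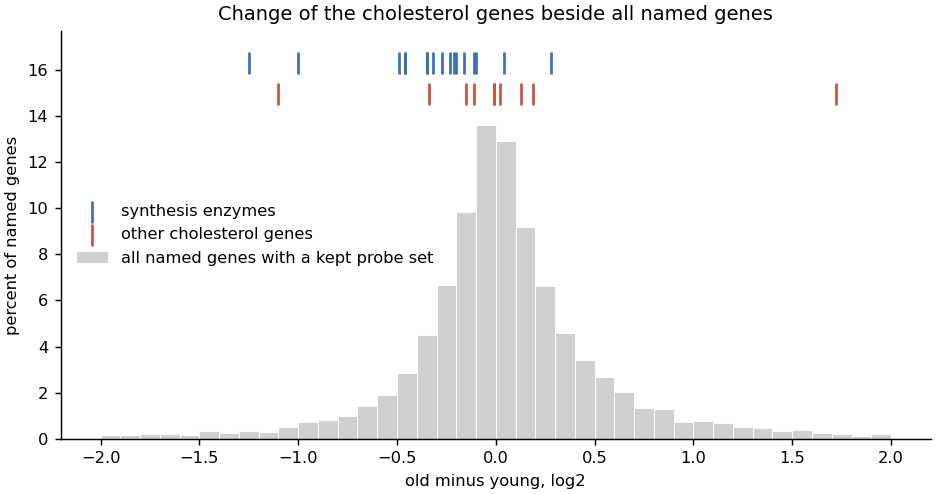
Old minus young log2 difference (x axis) of all 10050 named genes as a histogram in percent of genes (y axis), with a tick for each of the 17 synthesis enzymes (upper row) and each of the other 10 cholesterol genes measured (lower row). All but 2 of the enzyme ticks lie left of 0, and 5.39% of all genes lie outside the plotted range of 2 in either direction.

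Across all arrays, 38.3 to 40.3% of the 45101 probe sets lay at the shared lowest value of 2.14. Over the kept probe sets, pairs of old arrays correlated at r = 0.995, pairs of young arrays at 0.979 to 0.993 and pairs of different age at 0.915 to 0.944, computed over probe sets, which do not count as replicates. The 18 hybridisation control probe sets, which detect RNA spiked in before hybridisation, read lower in all old samples, at 13.24 ± 0.28 in young and 12.28 ± 0.098 in old (log2, SD, n = 3), a difference of -0.96. All directions here are relative to the deposited scaling, under which the median named gene differed by 0.01. In a fit added after seeing the data that scaled each array to these controls, the median named gene differed by 0.97 and the median synthesis enzyme by 0.69, so that 9 of the 12 falling genes lay above 0 and 0 of the 27 genes were called lower by limma (0 also at an unadjusted p under 0.05), while 21 were called higher. This scaling moves all genes of an array alike, so places relative to the median named gene could not change. All 12 lay below that gene, and the median enzyme by -0.28, which is no separate check. As RNA spiked in before hybridisation, the controls do not report the RNA content of the cells. Their shift coincided with age, so array handling and age cannot be told apart here. Which scaling holds was not tested, and the 15 alternatives cited below leave out the scaling to controls. Of 10 markers of neural stem cells, 9 were measured, among which Nes fell (-0.46, adjusted p = 0.00746), Msi1 rose (0.52, adjusted p = 0.00712) and 7, with Sox2 and Slc1a3 among them, did not pass, while Prom1 stayed under log2 4 on all 6 arrays. All 6 markers of microglia stayed under log2 4 on every array, with a summed level (log2 of the sum of linear values) of 4.72 on every young array and 4.72 to 4.82 in old. The myelin genes Mbp, Mog, Mag and Mobp, of cells that make much cholesterol, lay at 2.14 to 2.16, while Cnp, also listed for oligodendrocytes, lay at 13.17 to 13.39, and the summed level of the 5 markers was 13.29 to 13.39 in young and 13.18 to 13.36 in old. Of 6 astrocyte markers, 4 rose (Gja1, S100b, Aldh1l1 and Aqp4) and 1 fell (Slc1a2), and their summed level was 14.71 to 14.74 in young and 15.05 to 15.17 in old, with no marker at the lowest value. The summed level of 5 markers of oligodendrocyte progenitors was 13.18 to 13.31 in young and 13.20 to 13.27 in old, most of it Olig1, while Pdgfra fell by 1.44 and Cspg4 by 1.99 on the log2 scale and Sox10 lay at 2.14 throughout. That of 7 neuronal markers was 13.77 to 13.82 and 13.81 to 13.86, most of it Map2. Tubb3 fell from a mean of 9.50 to 3.83 and Snap25 from 4.85 to 3.72, Dcx read 5.36, 5.03 and 3.17 in young and 2.14 on every old array, and Rbfox3 and Stmn2 lay at 2.14 throughout. The markers of endothelium summed to 6.52 to 6.75 in young and 5.45 to 6.01 in old, with Flt1 falling by 1.22, and those of mural cells and fibroblasts to 6.76 to 7.44 and 5.74 to 6.51, with Acta2 falling by 1.33. Those of ependyma summed to 6.30 to 7.46 and 6.32 to 7.01, with Ccdc153 falling by 1.69 and Foxj1 rising from a mean of 3.36 to 5.81. Of these lists, Pecam1, Cldn5, Cdh5, Pdgfrb, Lum, Dcn, Tmem212 and Pifo lay at 2.14 throughout. The part of these shifts in the results on cholesterol genes was not tested.

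The promoters of 5 genes are shown. Hmgcs1, a textbook target of SREBP2, did not pass the test at the probe set that stands for it. Among the 24 genes with a promoter window, it was the only one with a match to the form of the sterol regulatory element searched. The others are Mvd and Lss, the enzymes with the largest falls at the probe sets that stand for them, Vldlr, the receptor that fell, and Abca1, the pump that rose. Each line holds the 250 bases before the start of transcription in RefSeq (build GRCm38.p6), 5′ to 3′ on the gene's strand, which the array data do not measure. They lie at chr13:119690101-119690350 (plus strand), chr8:122443423-122443672 (minus strand), chr10:76531355-76531604 (plus strand), chr19:27216770-27217019 (plus strand, the start with a match among 2 listed) and chr4:53159896-53160145 (minus strand). Capitals mark matches to CCAAT, the box bound by nuclear factor Y, on either strand (read as ATTGG on the other), and to TCACNCCAC, a form of the sterol regulatory element bound by SREBP2.
Hmgcs1: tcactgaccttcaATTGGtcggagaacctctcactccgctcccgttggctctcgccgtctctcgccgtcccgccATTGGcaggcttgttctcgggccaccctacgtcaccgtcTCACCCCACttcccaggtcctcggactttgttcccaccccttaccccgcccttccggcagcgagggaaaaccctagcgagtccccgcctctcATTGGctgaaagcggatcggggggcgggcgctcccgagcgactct
Mvd: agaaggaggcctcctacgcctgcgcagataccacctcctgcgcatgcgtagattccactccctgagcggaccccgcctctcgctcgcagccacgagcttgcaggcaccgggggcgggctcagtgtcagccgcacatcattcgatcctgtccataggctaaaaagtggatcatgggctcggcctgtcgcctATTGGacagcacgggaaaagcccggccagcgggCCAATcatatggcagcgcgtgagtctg
Lss: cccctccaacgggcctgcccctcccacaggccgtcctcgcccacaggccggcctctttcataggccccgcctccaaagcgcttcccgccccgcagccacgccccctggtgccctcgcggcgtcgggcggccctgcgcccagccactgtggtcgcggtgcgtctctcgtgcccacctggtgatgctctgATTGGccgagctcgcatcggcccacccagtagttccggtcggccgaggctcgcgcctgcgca
Vldlr: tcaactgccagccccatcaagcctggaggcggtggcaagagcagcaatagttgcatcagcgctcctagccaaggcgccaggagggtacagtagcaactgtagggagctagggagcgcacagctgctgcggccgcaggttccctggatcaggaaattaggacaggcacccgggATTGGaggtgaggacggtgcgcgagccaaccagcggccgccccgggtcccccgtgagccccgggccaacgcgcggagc
Abca1: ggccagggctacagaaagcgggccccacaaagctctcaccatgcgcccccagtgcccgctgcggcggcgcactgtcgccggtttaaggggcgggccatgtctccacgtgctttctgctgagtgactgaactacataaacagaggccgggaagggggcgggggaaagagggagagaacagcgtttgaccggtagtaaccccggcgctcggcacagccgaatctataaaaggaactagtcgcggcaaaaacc

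Promoter windows from 250 bases before to 50 bases after the start were on hand for 24 of the 30 genes and searched on both strands for 3 motifs, which do not overlap each other in the sequences shown. TCACNCCAC was found in 1 of the 24, Hmgcs1, at 137 to 129 bases before the start. It was found in 0 of the 8 falling genes with a window. Of the 8259 named genes with a kept probe set and a window, 1.34% held it. The falling genes Fdps, Fdft1, Sqle and Stard4 had no window. Other forms of the sterol regulatory element were not searched, so a missing match does not show that a gene lacks one. CCAAT was found in 20 of the 24, beside 43.9% of the 8259. All 14 synthesis enzymes with a window held CCAAT, the 7 that did not fall included, and so did the 8 falling genes with a window. The genes without it were Abca1, Lrp1, Nr1h3 and Scap. A strict DR4, the direct repeat with a spacer bound by liver X receptors, was found in 0 of the 24 and in 0 of the 8259. A pattern that no gene holds cannot tell genes apart, and looser forms of this repeat were not searched. Its absence therefore does not show that Abca1 lacks such an element. A match is a run of letters and was not tested as a binding site.

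The first stretch of the pathway, from acetyl-CoA units to squalene, had 7 measured enzymes, of which 5 fell and none rose, with differences between -1.00 and -0.11. Mvd, which makes isopentenyl pyrophosphate from mevalonate pyrophosphate, read 10.45, 10.42 and 10.61 on the young arrays and 9.22, 9.65 and 9.62 on the old arrays (log2). The old arrays all lay under the young ones, and the distance between the ages exceeded the spread within either. The difference was -1.00 ± 0.13 (log2, SE, adjusted p = 0.00397), and at the second probe set of Mvd it was -1.42 (adjusted p = 0.00123).

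Pmvk, the phosphomevalonate kinase that acts just before Mvd, read 11.33, 11.40 and 11.44 in young and 10.89, 10.86 and 11.05 in old. The ages did not overlap, and the difference was -0.46 ± 0.07 (SE, adjusted p = 0.00598). Fdft1, squalene synthase, which commits farnesyl units to sterols, read 12.85, 12.78 and 12.88 in young and 12.24, 12.42 and 12.38 in old. It fell 1.41-fold (adjusted p = 0.00384), and its other kept probe set fell as well (-0.41, adjusted p = 0.0216).

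Fdps, which makes farnesyl pyrophosphate, read 13.03, 12.97 and 13.10 in young and 12.48, 12.49 and 12.75 in old. It fell 1.38-fold (adjusted p = 0.0136), with old replicate 3 closest to the young arrays. The call was lost without old replicate 2 and without the filter (highest adjusted p = 0.0533). Idi1, the isomerase that readies isopentenyl units for joining, fell by 0.27 on the log2 scale with very little spread (13.61 ± 0.017 in young and 13.34 ± 0.053 in old, SD, n = 3, adjusted p = 0.01). Its second probe set gave -0.26 (adjusted p = 0.0114).

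The earliest enzymes did not pass at the probe set that stands for them. Mvk, mevalonate kinase, had a difference of -0.32 (95% interval -0.65 to 0.02, adjusted p = 0.12), and its other probe set had 0.03. Hmgcs1, which makes the HMG-CoA that is reduced to mevalonate, read 14.62, 14.73 and 14.67 in young and 14.53, 14.55 and 14.62 in old. Each old value was below each young one, though 1 pair was level to 2 decimals, and the difference of -0.11 did not pass (95% interval -0.24 to 0.02, adjusted p = 0.164). Hmgcs1 was among the brightest genes on the arrays, above 99.7% of kept probe sets. Its 5 probe sets did not give the same size of change. The other 3 bright ones, at 13.82 to 14.17, had -0.20, -0.05 and -0.03, of which the first passed (adjusted p = 0.0182), and the dim one fell from 8.72, 9.19 and 8.77 to 8.38, 7.97 and 8.44, by 0.63 (adjusted p = 0.045).

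**Figure D2:**
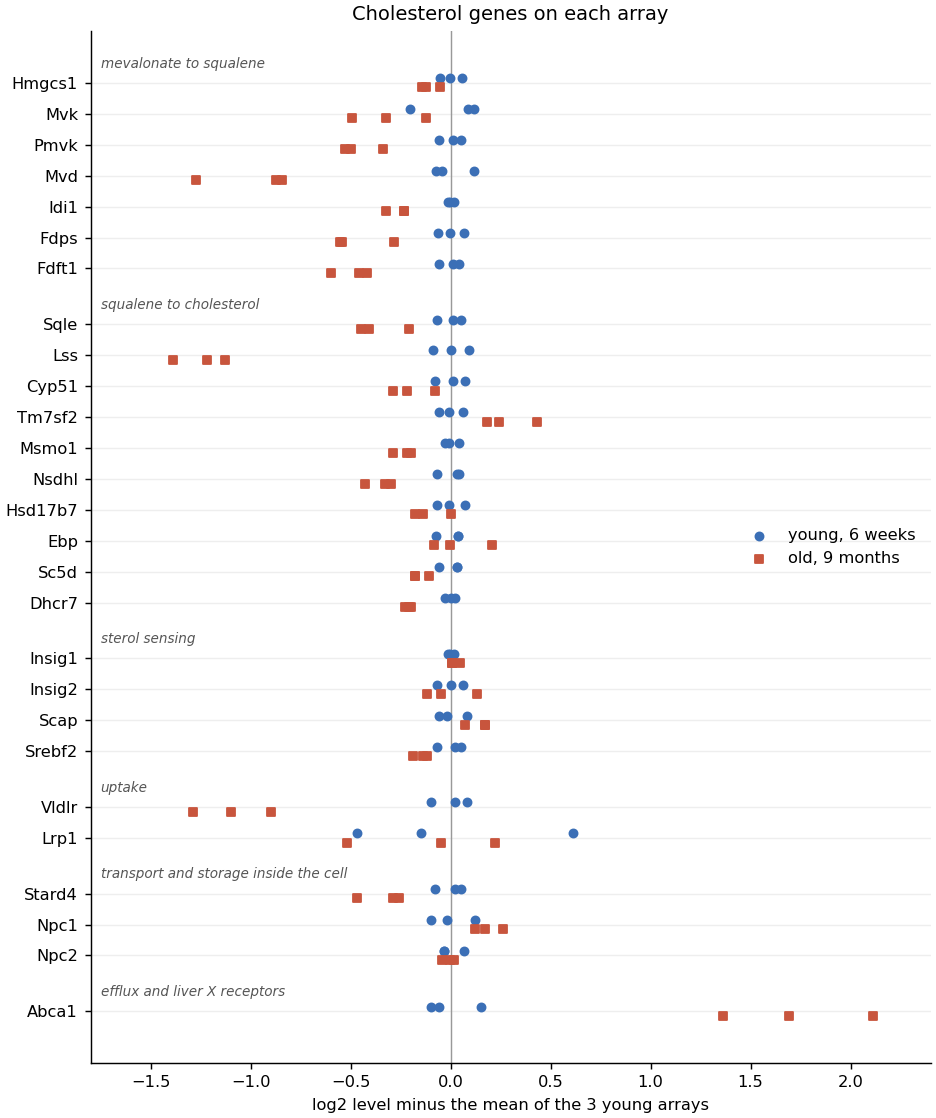
Log2 level on each array minus the mean of the 3 young arrays (x axis) for the 27 measured cholesterol genes (y axis), grouped by role, with circles for the 3 young and squares for the 3 old arrays. The old squares of Lss, Mvd and Vldlr lie far to the left of the young circles and those of Abca1 far to the right, while those of Insig1, Insig2, Lrp1 and Npc2 mix with them.

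From squalene to cholesterol 10 enzymes were measured, of which 5 fell and 1 rose, with a median difference of -0.20. Sqle, the epoxidase that opens this stretch, read 12.56, 12.48 and 12.60 in young and 12.10, 12.14 and 12.34 in old. It fell 1.28-fold (adjusted p = 0.0215). This call was lost under 5 of 15 alternatives, 4 of them leaving out an array (young replicate 1 or 3, old replicate 1 or 2), with adjusted p of at most 0.0758.

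Lss, which closes the epoxide into lanosterol, read 11.83, 11.92 and 12.01 in young and 10.53, 10.70 and 10.79 in old. All 3 old arrays lay more than 1 log2 unit under the lowest young array. The difference was -1.25 ± 0.088 (SE, adjusted p = 0.000497), with an interval of -1.46 to -1.03, and it passed under all 15 alternatives. The other 2 probe sets of Lss fell by 1.08 and 1.05 (adjusted p = 0.00355 and 0.00576). The intervals of the enzymes before and after it, Sqle (-0.55 to -0.15) and Cyp51 (-0.38 to -0.01), do not reach that of Lss, and the difference between these enzymes was not tested.

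Of the 8 enzymes that act after lanosterol, 3 fell. Nsdhl, a sterol dehydrogenase encoded on chromosome X, read 12.27, 12.16 and 12.26 in young and 11.80, 11.90 and 11.93 in old, and fell 1.28-fold (adjusted p = 0.00869). Msmo1, the methyl sterol oxidase, fell 1.18-fold (adjusted p = 0.0165), but not under the replicate block or without old replicate 1 or 2 (highest adjusted p = 0.0683). Dhcr7, which carries out the last reduction to cholesterol, fell 1.16-fold (13.81 ± 0.025 in young and 13.60 ± 0.017 in old, SD, n = 3, adjusted p = 0.0148), but not under the replicate block or without old replicate 1 or 3 (highest adjusted p = 0.0598).

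Tm7sf2, one of the reductases that act on the sterol ring, went the other way. It read 11.28, 11.33 and 11.40 in young and 11.52, 11.58 and 11.77 in old, so that every old array was higher. The rise of 0.28 (adjusted p = 0.0435) lay close to the threshold and did not survive the removal of any of the 6 arrays, nor 4 other alternatives (highest adjusted p = 0.122).

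Cyp51, the lanosterol demethylase, did not pass (-0.20, adjusted p = 0.0917), nor did its other 2 probe sets, at -0.41 and -0.08. Sc5d, the desaturase, had -0.16 (adjusted p = 0.0605) and passed under 4 alternatives. Hsd17b7, which acts on the ketone left by demethylation, had -0.10 (95% interval -0.28 to 0.07), and Ebp, the isomerase, had 0.04 (-0.18 to 0.26), the only other enzyme above 0. The ages overlapped for both.

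Seen by array, 16, 16 and 14 of the 17 enzymes lay below their own young mean on old replicates 1, 2 and 3. The median distance from the young mean over the 17 was -0.33, -0.24 and -0.21 log2 on the old arrays and between -0.06 and 0.04 on the young ones. Old replicate 3 thus stood nearer to the young arrays than the other 2.

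**Figure D3:**
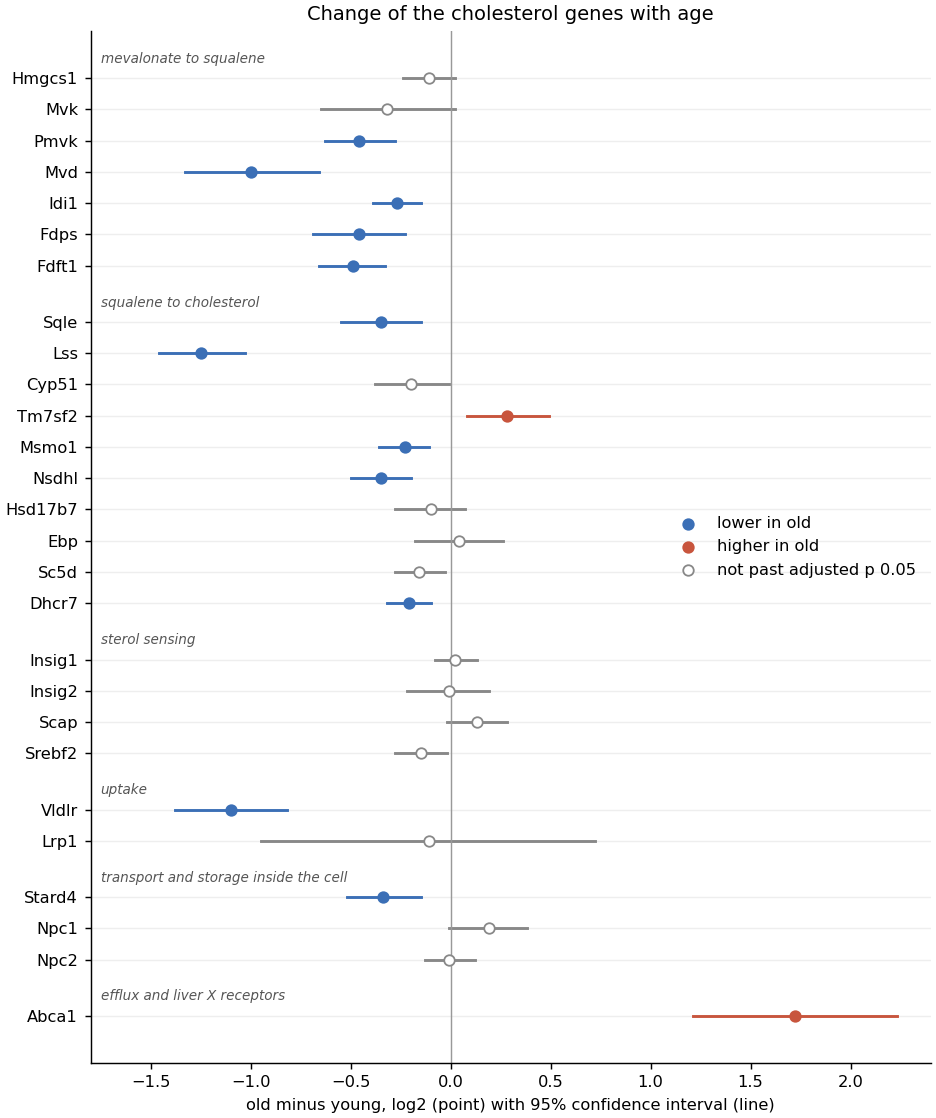
Old minus young log2 difference (point) with its 95% confidence interval from limma (line) for the 27 measured cholesterol genes, grouped by role; filled points passed an adjusted p of 0.05, open points did not. Of the 12 genes that fell, 10 are synthesis enzymes, and the intervals of Lss, Mvd and Vldlr lie farthest left.

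None of the 4 genes that sense sterols and drive the pathway passed at its brightest probe set. Srebf2 itself read 13.02, 13.11 and 13.14 in young and 12.95, 12.90 and 12.97 in old. Every old array was lower, by a difference of -0.15 that did not pass (95% interval -0.28 to -0.02, adjusted p = 0.074), and its second probe set passed with -0.18 (adjusted p = 0.0424). Scap, the escort of SREBP2, had 0.13 (95% interval -0.02 to 0.28, adjusted p = 0.142).

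Insig1, a retention protein and also a classic target gene of SREBP2, read 14.28, 14.26 and 14.25 in young and 14.27, 14.31 and 14.27 in old. The ages overlapped in a narrow range, and the difference of 0.02 had an interval of -0.08 to 0.13. Insig1 was brighter than 98.8% of kept probe sets. Insig2, its relative, had -0.01 (95% interval -0.22 to 0.19).

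Bright genes changed less than others throughout these arrays. Of the named genes with a mean above log2 13, 22.6% changed, with a median size of 0.09, against 43.1% and 0.27 among the rest. Of the cholesterol genes 8 lay above log2 13, namely Hmgcs1, Idi1, Cyp51, Msmo1, Dhcr7, Insig1, Srebf2 and Npc2. Their differences ran from -0.27 to 0.02, and 3 of the 8 passed, while those of the other 19 ran from -1.25 to 1.72 and 11 passed. The part of brightness in these differences was not tested.

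**Figure D4:**
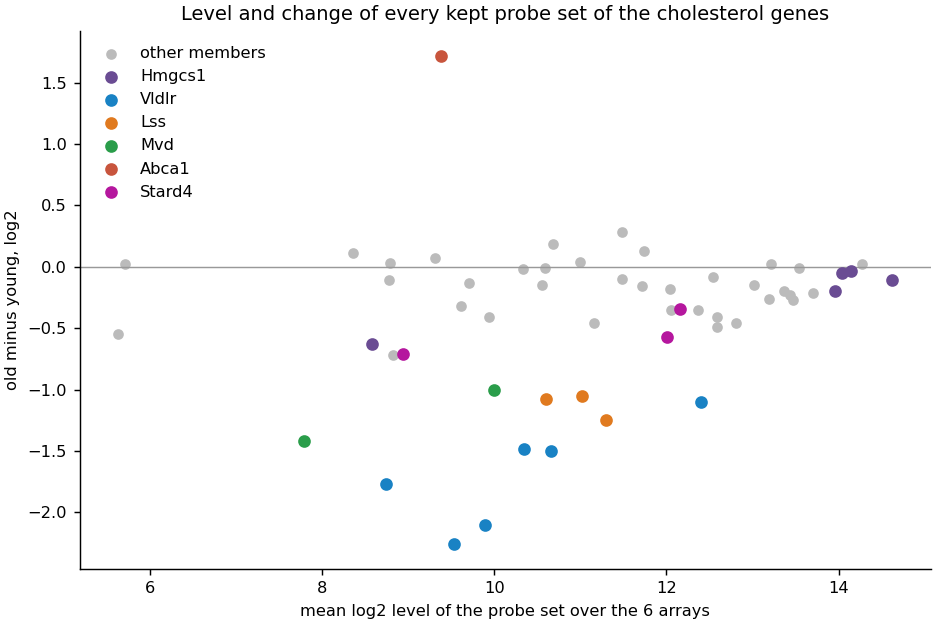
Mean log2 level over the 6 arrays (x axis) against old minus young log2 difference (y axis) for the 56 kept probe sets of the cholesterol genes, with 6 genes in colour. The 6 Vldlr probe sets, the 3 of Lss and the 2 of Mvd all lie at -1.00 or below, and the 4 bright Hmgcs1 probe sets lie between -0.20 and -0.03 while its dim one lies at -0.63.

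Vldlr encodes a receptor for lipoproteins rich in apolipoprotein E and, with Lrp8, for reelin. At its brightest probe set it read 12.85, 13.03 and 12.97 in young and 11.66, 11.85 and 12.05 in old. The ages were clearly apart, with a difference of -1.10 ± 0.11 (SE, adjusted p = 0.00162). The suffix of this probe set (_x_at) marks probes that can also match other transcripts. The other 5 probe sets of Vldlr fell more, by between 1.48 and 2.26 (adjusted p between 0.000105 and 0.000761), and on the mean of all 6 the difference was -1.70. At the probe set with the largest fall, Vldlr read 10.54, 10.89 and 10.55 in young and 8.26, 8.39 and 8.57 in old.

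Lrp1, a large endocytic receptor that also takes up lipoproteins, read 8.37, 9.45 and 8.69 in young and 8.32, 8.79 and 9.06 in old. Its replicates scattered more than those of any synthesis enzyme, and the difference of -0.11 had a wide interval of -0.95 to 0.72 (adjusted p = 0.809). Mylip, the ligase that marks lipoprotein receptors for degradation, was under the filter, at 2.14 to 2.18 in young and 2.24 to 2.62 in old, which is too close to the lowest value to give a fold.

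Of the genes that move cholesterol within the cell, Stard4, a soluble carrier whose gene responds to SREBP2, was the 1 of 3 measured that fell. It read 12.35, 12.38 and 12.25 in young and 12.04, 12.07 and 11.86 in old, a difference of -0.34 ± 0.075 (SE, adjusted p = 0.0204). The call at this probe set was lost without the filter and without young replicate 1 or 2 (highest adjusted p = 0.0631). The other 2 probe sets fell by 0.57 (adjusted p = 0.00118) and 0.71 (adjusted p = 0.0108), and the mean of the 3 by 0.54. Npc1 and Npc2, which hand cholesterol out of the lysosome, did not pass. Npc1 read 10.49, 10.57 and 10.71 in young and 10.85, 10.76 and 10.71 in old (0.19, 95% interval -0.01 to 0.38, adjusted p = 0.114), and Npc2 had -0.01 (-0.13 to 0.12).

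Abca1, the pump that hands cholesterol to apolipoproteins outside the cell and a main target of the liver X receptors, read 8.67, 8.46 and 8.42 in young and 10.21, 10.63 and 9.88 in old. The lowest old array was more than 1 log2 unit above the highest young one, and the difference of 1.72 ± 0.20 (SE) was the largest in either direction among the probe sets that stand for the 27 genes (adjusted p = 0.00256), although other Vldlr probe sets moved by up to -2.26. It passed under all 15 alternatives, with differences between 1.53 and 1.90. Of the other 2 probe sets of Abca1, 1 lay at 2.14 on all arrays and 1 read 2.14 to 2.15 in young and 2.29 to 2.74 in old, both under the filter. The sister pump Abcg1, at 2.14 to 2.15 by both probe sets, and the liver X receptor gene Nr1h3, at 2.14 on all 6 arrays, gave no level above the lowest value at either age.

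Other genes of sterol metabolism, fixed as 6 lists of 62 genes, differed from the synthesis enzymes in their counts. Of the 62, 44 lay above log2 4 on all 6 arrays, and of these 20 rose, 3 fell and 21 did not pass, with a median difference of 0.25. Over all named genes above log2 4 on all arrays, 20.9% rose and 17.8% fell, and no list was tested against these shares. A further 5 passed the filter through the old arrays, 8 were under it and 5 had no probe set under their name.

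Among 5 measured partners and targets of the liver X receptors, 4 rose and none fell. Srebf1, the gene of the SREBP that drives fatty acid synthesis and a direct target of these receptors, read 8.20, 8.44 and 8.61 in young and 10.59, 10.82 and 10.62 in old. The ages were far apart, with a rise of 4.78-fold (adjusted p = 0.000233). Rxra, a retinoid receptor that pairs with the liver X receptors, rose 1.77-fold (adjusted p = 0.00156), the phospholipid transfer protein gene Pltp 1.26-fold (adjusted p = 0.00551) and the acyltransferase gene Lpcat3 1.2-fold (adjusted p = 0.04).

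Genes of lipoprotein handling and lysosomal release rose in 4 of 6 cases, and none fell. Nceh1, a hydrolase of cholesteryl esters, rose 1.63-fold (adjusted p = 0.00112). The lipoprotein receptor gene Scarb1 rose 1.44-fold (adjusted p = 0.00528) and the receptor chaperone gene Lrpap1 1.32-fold (adjusted p = 0.00254). Lipa, the lysosomal acid lipase that frees cholesterol from lipoproteins taken up, read 8.89, 7.89 and 7.90 in young and 9.56, 9.67 and 9.53 in old and rose 2.57-fold (adjusted p = 0.0172), a gene named here after its values were seen. Lpl, the lipoprotein lipase, is not among the 6, since it passed the filter through the old arrays, so only a rise could be seen. It was at 2.14 to 2.16 in young and 10.80 to 10.97 in old. That is at least 116-fold higher against log2 4, the level that stands in for background.

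Of 6 genes that process SREBP or degrade sterol-sensing proteins, 2 rose and none fell. Over all named genes above log2 4 on all arrays 20.9% rose and 17.8% fell, and 6 genes are too few to set this list apart. The 2 that rose were Erlin1 and Erlin2, partner proteins of the endoplasmic reticulum that restrain SREBP activation. Their differences were 0.69 (adjusted p = 0.00118) and 0.57 (adjusted p = 0.00503). The proteases that cut SREBP did not pass, with Mbtps1 at 0.22 (adjusted p = 0.0553) and Mbtps2 at 0.04, the latter named after its value was seen. Of 13 genes listed for the isoprenoid branch, 5 rose and none fell, led by the methyltransferase Icmt at 1.49-fold (adjusted p = 0.000866). Pggt1b, a subunit of a prenyl transferase, rose 1.25-fold (adjusted p = 0.00976). The use of farnesyl units was not measured.

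Sterol transfer proteins went both ways, with 4 of 12 rising and 2 falling. Among those that rose were Osbpl6, 1.41-fold (adjusted p = 0.0103), and Osbpl1a, 1.42-fold (adjusted p = 0.0112). Gramd1a, which carries cholesterol from the plasma membrane to the endoplasmic reticulum, fell 1.79-fold (adjusted p = 0.00167). Its relative Gramd1b is not among the 12, since it passed the filter through the old arrays. Gramd1b rose at least 4.0-fold, from under log2 4 on all young arrays to 6.00 in old. Osbpl10 was the other that fell, 2.74-fold (adjusted p = 0.0122), and is named after its values were seen. Of the enzymes of oxysterols, Cyp7b1 rose 3.58-fold (adjusted p = 0.0152) and Cyp39a1 fell 1.63-fold (adjusted p = 0.00462). Hsd3b7 passed the filter through the old arrays, so only a rise could be seen, and it rose at least 2.06-fold against log2 4.

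**Figure D5:**
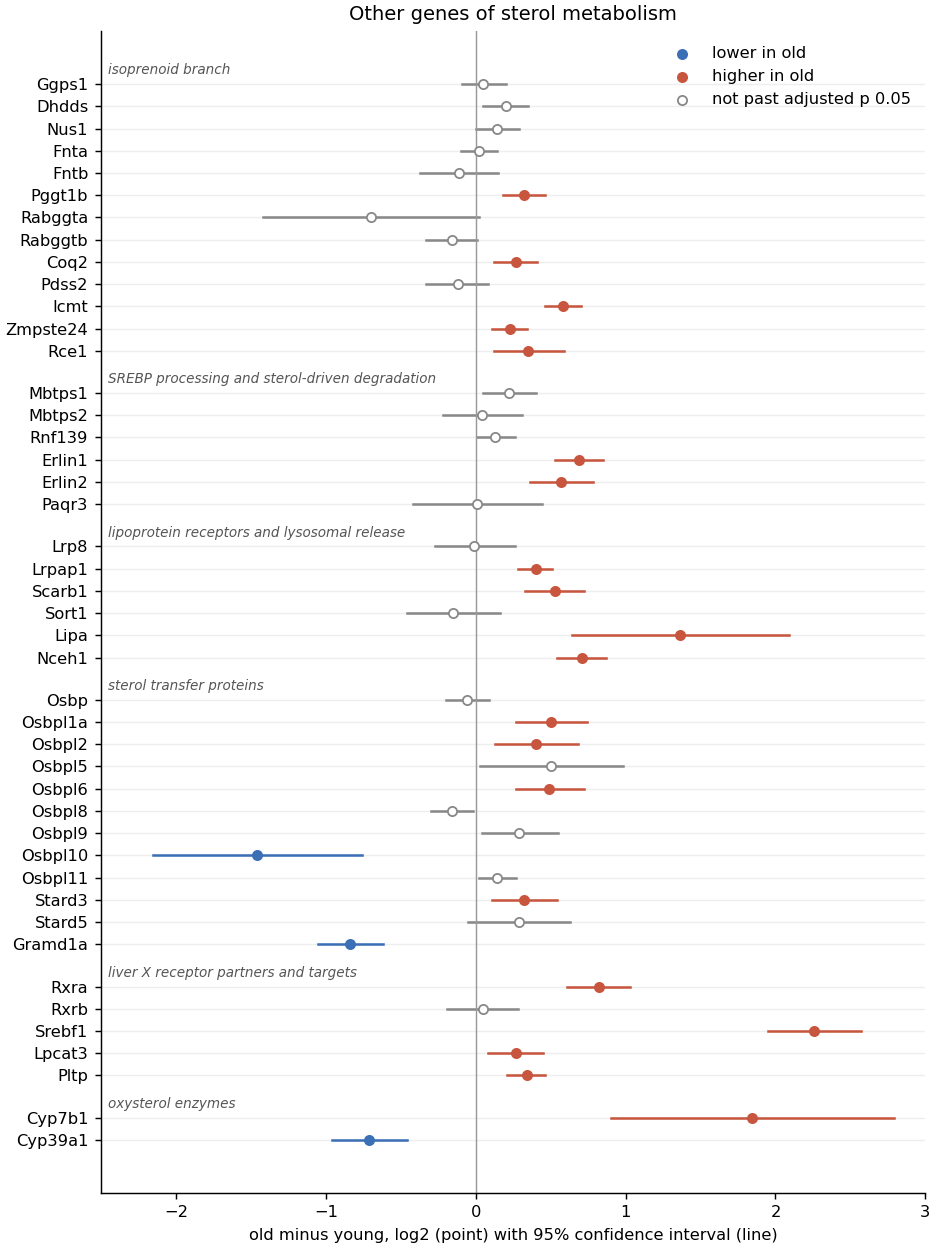
Old minus young log2 difference (point) with its 95% confidence interval from limma (line) for the 44 other genes of sterol metabolism above log2 4 on all 6 arrays, by list; filled points passed an adjusted p of 0.05. Of the filled points 20 lie to the right of 0 and 3 to the left, with Srebf1 farthest to the right.

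Where a cholesterol gene had more than 1 kept probe set, the probe sets mostly gave the same sign. Of 29 further kept probe sets of 15 genes, 24 had the sign of the brightest one, 15 were called in its direction and 0 were called the opposite way. The 5 with the other sign belonged to Mvk, Npc2, Hsd17b7 and Sc5d, none of which passed at its brightest probe set.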

How the data were processed

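Total RNA of 6 samples was measured, 1 Affymetrix array each. The deposited values are log2 levels per probe set, made by the authors with GCRMA per the submitters' processing notes; extraction used the NucleoSpin XS kit and labelling the NuGEN Encore Biotin module, per the labels' protocols. GCRMA models background from probe sequence and presses dim probe sets towards 1 value, which understates replicate spread there. The version of GCRMA was not given in the sources used here, and the log2 scale follows from the range of the values.

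After 64 control probe sets were left out, the 19858 above log2 4 on at least 3 arrays were compared, old minus young, by a two-sided test in limma 3.58.1 under R 4.3.3 (lmFit, then eBayes with no trend; 4 residual and 1.47 prior degrees of freedom), with Benjamini-Hochberg adjustment over all of them. Only probe sets with 1 symbol were named, and all 30 genes matched RefSeq by Entrez identifier. SE is limma's moderated standard error. The fit was tested on simulated data. Python 3.11.15 with matplotlib 3.10.9 made the figures. With 6 arrays, precision is limited by their number.

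The members, lists and tests were chosen with earlier results of these data known. All measured members could be named, and of each other list up to 4 genes with the smallest p. Alternatives were other filters, quantile normalization again, centring on the median, array weights, a replicate block, trend and robust eBayes, the mean of a gene's probe sets and leaving out each array. Scaling to the hybridisation controls was added after seeing the data.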

Additional observations from a re-analysis of the deposited data

How the results depend on the processing

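Scaling each array to its hybridisation controls, an alternative chosen after seeing the data, moved the median difference of all named genes from 0.01 to 0.97. It gave 21 rising and 0 falling cholesterol genes and 16530 higher and 635 lower probe sets. Under it the differences turned to 0.85 for Hmgcs1, 0.64 for Mvk, 0.50 for Pmvk, 0.69 for Idi1, 0.50 for Fdps, 0.47 for Fdft1, 0.61 for Sqle, 0.76 for Cyp51, 0.73 for Msmo1, 0.61 for Nsdhl, 0.86 for Hsd17b7, 0.80 for Sc5d, 0.75 for Dhcr7, 0.95 for Insig2, 0.81 for Srebf2, 0.85 for Lrp1, 0.62 for Stard4 and 0.95 for Npc2, by the shift that this scaling adds to every gene, and the falls of Lss (-0.29), Vldlr (-0.14) and Mvd (-0.04) no longer passed. Apart from that scaling, no gene changed direction while called under any of the 15 alternatives run for each of the 27 genes. Of the 14 calls, 8 (Lss, Mvd, Pmvk, Idi1, Fdft1, Nsdhl, Vldlr and Abca1) passed under all 15 and 6 (Fdps, Sqle, Msmo1, Dhcr7, Stard4 and Tm7sf2) were lost under at least 1. The 2 rising genes became 1 without the filter, after quantile normalization again, after centring each array on its median and with array weights, and 1 in each fit that left out an array (1 to 1), since the rise of Tm7sf2 was lost there; the cause was not tested. The 12 falling genes became 9 to 11 on leaving out an array, 9 without the filter, 10 with the replicate block and 16 with eBayes with trend and robust. That setting added Cyp51, Hmgcs1, Sc5d and Srebf2, and other alternatives added only Hmgcs1 or Sc5d. Over all probe sets, the counts on leaving out an array were 2768 to 3961 higher and 2177 to 3301 lower, the lowest count of lower probe sets coming without old replicate 2, against 3995 and 3273. In a paired check, same-numbered young and old arrays had deviations from their age means that correlated at -0.16, -0.11 and 0.16 across probe sets. Young and old arrays of different number correlated at -0.22 to 0.25. The check showed no pairing by number, and with 3 arrays per age it cannot exclude one. The replicate block gave 3144 higher and 2456 lower probe sets and lost the calls of Msmo1 and Dhcr7. Levels near the lowest value (Mylip, Abcg1 and Nr1h3) limit what can be said of these genes.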
